A study of Mus musculus with 8 samples.

Results

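The 10 genes described here are Csf1r, Clec4f, Cd5l, Vsig4, Adgre1, C1qa, C1qb, C1qc, Marco and Timd4, which mark Kupffer cells, the resident macrophages of the liver, or encode the chains of complement C1q. They were taken by symbol from the 46603 genes of the count table, and all 10 were found there. RNA was sequenced from 8 libraries of liver cells from 4 mice, JV602, JV621, JV624 and JV6314, with 1 EGFP-positive library (LLRCs, liver label-retaining cells) and 1 EGFP-negative library (non-LRC cells) per mouse. All mice were heterozygous for R26rtTA, a doxycycline-dependent activator under the ubiquitous Rosa26 promoter, and for H2B-EGFP, a histone fusion driven by that activator, on a mixed C57BL/6 and CBA background. Both libraries of a mouse therefore shared genotype, doxycycline from birth to postnatal day 5 and an age of 8 weeks at the sort, and differed in whether the cells had kept the label. Hepatocytes were spun out, CD45-positive cells were depleted with beads, and EpCAM-positive, CD45-negative cells were sorted from all mice. The sort was thus for biliary epithelial cells and against leukocytes, which carry CD45, and not for Kupffer cells. The study's text notes that hematopoietic cells of the bone marrow express the H2B-EGFP transgene without doxycycline. It also reports that no EGFP-positive cells were found in normal livers of such mice without doxycycline.

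Kupffer cells line the liver sinusoids, clear particles, bacteria and dying cells from portal blood, and depend on the receptor that Csf1r encodes for their survival. Clec4f, Vsig4, Cd5l, Marco and Timd4 are used to tell them from other cells, and Adgre1 encodes F4/80, the classical mouse macrophage antigen. C1q is the recognition molecule of the classical complement pathway, assembled from the A, B and C chains that C1qa, C1qb and C1qc encode, and unlike most complement proteins it is made mainly by macrophages and dendritic cells. The 3 genes lie side by side on chromosome 4, on the minus strand between positions 136880129 and 136898803 of GRCm38.

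The libraries held between 4670132 and 9851819 counts, and between 14234 and 20430 genes were detected in each. The fewest genes were detected in the non-LRC library of JV621, and the lowest totals were those of the non-LRC libraries of JV6314 (4670132) and JV624 (5186007), in which most of the Kupffer cell and C1q genes were read. A floor of 3 counts corresponded to between 0.291 and 0.626 CPM (read counts relative to the TMM-scaled library size). The intervals and floors given here cover counting error only.

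Csf1r was read in every library, with overlapping levels in LLRCs and non-LRC cells, whereas the other 9 genes were close to absent from LLRCs and were read mainly in 2 of the 4 non-LRC libraries. Together the other 9 genes had 5 counts in the 4 LLRC libraries and 251 in the 4 non-LRC libraries, and Csf1r had 632 and 493. Of these 251 counts, 144 were in the non-LRC library of JV624 and 81 in that of JV6314. No gene of the 10 passed the test between groups: in the quasi-likelihood test of edgeR the adjusted p was below 0.05 for 0 of 13605 genes (0.0% called, and 702 genes or 5.16% at an unadjusted p below 0.05), and of the 10 only Csf1r had enough counts to be tested. In bulk samples such as these, fewer cells of a type and less RNA per cell cannot be told apart.

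**Figure D1:**
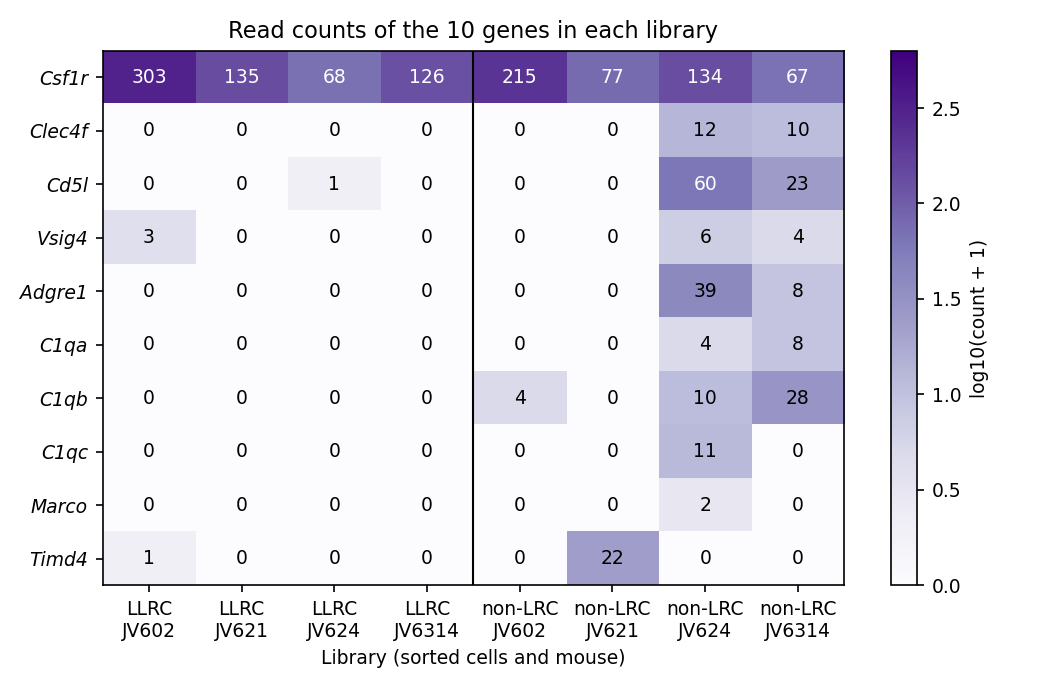
Read count of each of the 10 genes (rows) in each library (columns, LLRC left and non-LRC right of the line), written in each cell and shaded by log10 of the count plus 1. Csf1r had between 67 and 303 counts in every library, while most of the other values were 0 and the highest was 60, for Cd5l in the non-LRC library of JV624.

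Csf1r (ENSMUSG00000024621, chromosome 18, 61100598 to 61132149 on the plus strand) encodes the receptor for the cytokines CSF1 and IL-34. Values are given here and throughout in the order JV602, JV621, JV624, JV6314. LLRCs had 303, 135, 68 and 126 counts of Csf1r, and non-LRC cells 215, 77, 134 and 67. As CPM, LLRCs had 29.4, 15.97, 10.001 and 13.99, and non-LRC cells 26.9, 16.1, 21.2 and 13.2. JV602 gave the highest level in both groups, and the ranges of the groups overlapped almost entirely. The LLRC mean was 17.3 ± 8.40 CPM, against 19.3 ± 6.03 CPM for the non-LRC cells (SD, n = 4 each; exact two-sided permutation p = 0.714, where 0.029 is the smallest possible). The log2 fold change, LLRC over non-LRC here and throughout, was -0.16 (SE 0.44, adjusted p = 0.9999 from the quasi-likelihood test of edgeR).

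Within the mouse, the log2 ratio of Csf1r in LLRCs to non-LRC cells was 0.12 in JV602, -0.01 in JV621, -1.08 in JV624 and 0.08 in JV6314. The ratio of JV624 was the farthest from 0, and those of the other mice were close to it. The mean ratio was -0.22 ± 0.57 (SD, n = 4 mice; exact two-sided sign-flip p = 0.875, a design in which 4 mice cannot reach 0.05), and without JV624 it was 0.06 ± 0.07 (SD, n = 3). The direction of the fitted log2 fold change turned on single libraries, being 0.040 without the LLRC library of JV624, and 0.035 when that of the JV602 non-LRC cells was left out.

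Of the 5774 exon bases of Csf1r, 873 (15.1%) are shared with exons of Hmgxb3 on the opposite strand, and the counting did not use strand. In union mode a read that overlaps 2 genes is counted for neither, so the Csf1r counts leave out reads from that stretch. In LLRCs Hmgxb3 had 34, 26, 8 and 18 counts, against 43, 56, 5 and 0 in non-LRC cells. It was below Csf1r in every library. The exons of the other 9 genes share no base with another gene of the annotation.

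Adgre1 encodes the adhesion receptor F4/80. All 4 LLRC libraries were at 0 counts, and the non-LRC libraries were at 0, 0, 39 and 8. Against a floor of 3 counts over the LLRC group it was at least 22.4-fold higher in non-LRC cells, and at least 5.17-fold higher without the non-LRC library of JV624. The zeros in the non-LRC libraries of JV602 and JV621 kept the groups overlapping (exact permutation p = 0.429).

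Clec4f, a C-type lectin receptor restricted among mouse liver cells to Kupffer cells, had 0 counts in every LLRC library, against 0, 0, 12 and 10 in non-LRC cells. It was at least 10.5-fold higher in non-LRC cells, or at least 6.46-fold without the library of JV624 (exact permutation p = 0.429). Its reads were thus in the same pair of libraries as those of Adgre1. Cd5l, a secreted scavenger receptor family protein that macrophages make, had 0, 0, 1 and 0 counts in LLRCs, against 0, 0, 60 and 23 in non-LRC cells. Its pooled non-LRC to LLRC ratio was 118.7 with a 95% interval of 20.7 to 4744, which rests on 1 LLRC count (exact permutation p over the libraries = 0.429). The single LLRC count came from JV624, the mouse with the most Cd5l in its non-LRC library.

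Vsig4 encodes a complement receptor of the immunoglobulin superfamily that binds C3 fragments. LLRCs had 3, 0, 0 and 0 counts, against 0, 0, 6 and 4 in non-LRC cells, a pooled ratio of 4.77 with a 95% interval of 1.23 to 27.0 (exact permutation p = 0.429). JV602 was the only mouse with Vsig4 reads in LLRCs, and it had none in non-LRC cells. Marco, a scavenger receptor for bacteria and particles, had 2 counts, both in the non-LRC library of JV624, which is under the floor. No difference in Marco was detectable at this depth.

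Timd4, a phosphatidylserine receptor for dying cells found on long-lived resident macrophages, differed from the rest in where it was read. LLRCs had 1, 0, 0 and 0 counts, against 0, 22, 0 and 0 in non-LRC cells. All 22 counts were in the non-LRC library of JV621, in which the other 8 genes besides Csf1r and Timd4 had 0 counts. The pooled ratio of 31.5, with a 95% interval of 5.09 to 1299, rests on that library (exact permutation p = 1).

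The 3 C1q chains had 0 counts in all LLRC libraries. In non-LRC cells C1qa had 0, 0, 4 and 8 counts, C1qb had 4, 0, 10 and 28, and C1qc had 0, 0, 11 and 0. The chains were not read in the same proportions: C1qb was the most read in JV6314, with no count of C1qc, while in JV624 the levels per length were 1.45 CPM per kb of exon for C1qb, 0.899 for C1qc and 0.607 for C1qa. C1qa was at least 5.72-fold higher in non-LRC cells, and at least 2.41-fold without the library of JV6314 (exact permutation p = 0.429). C1qb was at least 20.02-fold higher, and at least 8.44-fold without the same library (exact permutation p = 0.143). C1qc was at least 5.24-fold higher, from the library of JV624 alone (exact permutation p = 1).

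Only 7 of the 10 genes have an entry in the RefSeq table of promoters for GRCm38.p6. The windows below, 5′ to 3′ on the strand of the gene and ending before the annotated exons, are shown for 4 genes read in the non-LRC libraries of both JV624 and JV6314 and for Timd4, read in that of JV621. They lie at chr4:136886201-136886450 for C1qb (minus strand), chr3:87357631-87357880 for Cd5l (plus), chr6:83656188-83656366 for Clec4f (minus), chr11:46810549-46810798 for Timd4 (plus) and chrX:96293439-96293688 for Vsig4 (minus). Capitals mark matches on either strand to a core motif of the myeloid factor PU.1, searched as GAGGAA or TTCCTC, and to a core of the MAF recognition element, searched as TGCTGA or TCAGCA.
C1qb: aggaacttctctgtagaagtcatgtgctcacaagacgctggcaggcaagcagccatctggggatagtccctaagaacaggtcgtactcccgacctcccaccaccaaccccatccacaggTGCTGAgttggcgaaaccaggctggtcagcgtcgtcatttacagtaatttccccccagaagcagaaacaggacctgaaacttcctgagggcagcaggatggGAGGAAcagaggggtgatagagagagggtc
Cd5l: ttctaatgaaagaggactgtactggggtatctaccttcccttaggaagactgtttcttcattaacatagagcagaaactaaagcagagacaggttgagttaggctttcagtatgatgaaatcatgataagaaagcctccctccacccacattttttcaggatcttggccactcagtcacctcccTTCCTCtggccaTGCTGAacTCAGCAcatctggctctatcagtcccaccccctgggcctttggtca
Clec4f: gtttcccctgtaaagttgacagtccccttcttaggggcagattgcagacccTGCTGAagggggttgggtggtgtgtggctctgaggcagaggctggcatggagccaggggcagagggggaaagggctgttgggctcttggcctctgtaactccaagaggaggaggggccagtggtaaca
Timd4: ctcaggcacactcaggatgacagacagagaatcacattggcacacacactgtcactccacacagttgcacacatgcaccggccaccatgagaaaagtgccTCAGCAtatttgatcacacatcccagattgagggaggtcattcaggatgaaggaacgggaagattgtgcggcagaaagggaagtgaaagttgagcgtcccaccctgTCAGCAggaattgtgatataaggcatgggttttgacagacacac
Vsig4: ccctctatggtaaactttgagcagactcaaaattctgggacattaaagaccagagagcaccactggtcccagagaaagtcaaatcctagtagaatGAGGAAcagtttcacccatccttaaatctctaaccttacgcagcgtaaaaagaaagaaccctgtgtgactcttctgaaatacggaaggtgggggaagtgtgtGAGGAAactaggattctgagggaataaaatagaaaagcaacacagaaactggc
The PU.1 letters were in the windows of 5 of the 7 genes with an entry and in 23.3% of 32851 RefSeq promoters. The MAF letters were in 4 of the 7 and in 16.1% of the same promoters. C1qb and Cd5l hold both, Vsig4 holds only the PU.1 letters, and Clec4f and Timd4 hold only the MAF letters. The motifs can overlap at the letters GA and did not do so in these windows. A match describes the letters only, and binding was not measured.

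The contrast of Csf1r with the other genes was compared within each mouse. Csf1r made up 98.7%, 100%, 98.6% and 100% of the reads of the 10 genes in LLRCs. In non-LRC cells it made up 98.2%, 77.8%, 48.2% and 45.3%. The 95% Wilson interval was 92.2% to 99.7% for the LLRC library of JV624 and 42.4% to 54.1% for the non-LRC library of that mouse. For JV621 the intervals were 97.2% to 100% in LLRCs, against 68.6% to 84.8% in non-LRC cells. For JV6314 the intervals were 97.0% to 100% and 37.5% to 53.3% in the same order of groups, whereas those of JV602 overlapped (96.7% to 99.5%, and 95.4% to 99.3%). The intervals of the libraries did not overlap in JV621, JV624 and JV6314. They cover the counting of reads within a library and not the spread between libraries, so these shares are a description without a test, and in JV621 the 22 counts other than Csf1r were all Timd4. Summed, the other 9 genes stood in LLRCs at 0.388, 0, 0.147 and 0 CPM, and in non-LRC cells at 0.501, 4.59, 22.7 and 15.98 CPM. The sums of the groups did not overlap, but the lowest non-LRC sum and the highest LLRC sum, 0.501 and 0.388 CPM, both came from 4 counts in JV602.

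**Figure D2:**
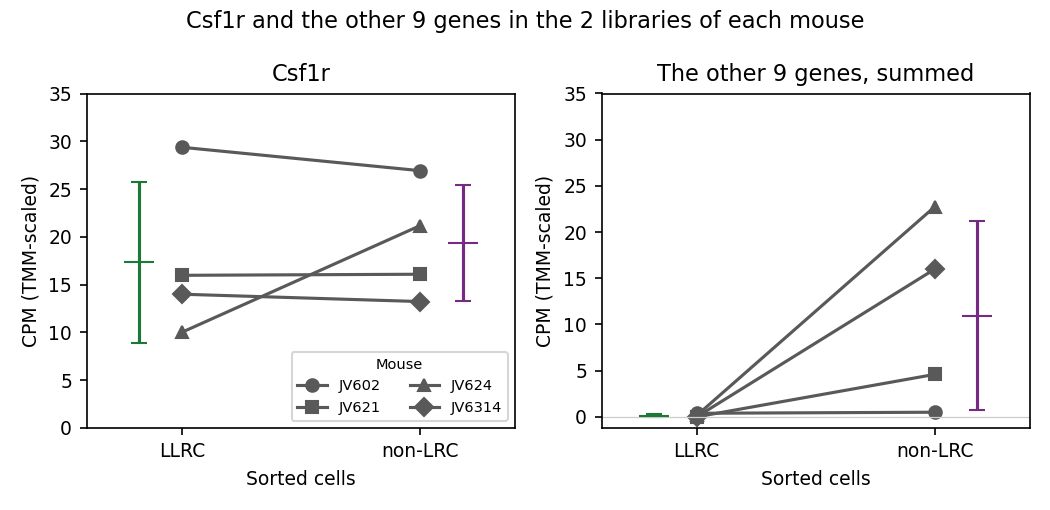
Level in CPM of Csf1r and summed level of the other 9 genes in the LLRC and non-LRC libraries of each mouse, joined by a line per mouse, with coloured bars for the mean ± SD of each group (n = 4). Csf1r lay between 10.001 and 29.4 CPM over both groups, while the other 9 genes summed to at most 0.388 CPM in LLRCs and reached 22.7 CPM in non-LRC cells of JV624.

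Counted gene by gene and mouse by mouse, the other 9 genes had reads in 18 of 36 gene and mouse combinations. The level was lower in LLRCs in 16 of them and higher in 2, Vsig4 and Timd4 in JV602. None of the 10 genes had groups without overlap. Of the 19740 genes with 10 or more counts over all libraries, which include the 10 genes except Marco, 1.58% had every LLRC value below every non-LRC value and 2.15% had the opposite. Of the 9 genes among them, Clec4f, Adgre1 and C1qa were at 0 in the other 6 libraries and at 3 or more counts in the non-LRC libraries of both JV624 and JV6314, a pattern held by 19 genes or 0.0963% of the 19740. Clec4f, Adgre1, C1qa, C1qb and C1qc were at 0 in every LLRC library, as were 2.04% of the 19740. Clec4f, Cd5l, Vsig4, Adgre1, C1qa and C1qb had both of these non-LRC libraries above the other 6 in CPM, as did 9.29%. These patterns were described after the values were seen and were given no test.

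When every gene with a count was kept, the quasi-likelihood test of edgeR took 27591 genes, with all 10 genes among them. None had an adjusted p below 0.05 (0.0399% of all genes did), and the smallest adjusted p among them was 0.633. At an unadjusted p below 0.05, 6 of the 10 were lower in LLRCs, as were 4.04% of all genes. On the same genes the counts lower in LLRCs at that p were 3 of 10 with DESeq2 (3.2% of all genes) and 4 of 10 with the exact test of edgeR (2.75%). The exact test called 0.417% of all genes after adjustment and none of the 10. DESeq2 called 1.68% of the genes to which it gave an adjusted p, and none of the 5 of the 10 with one. It gave none to Clec4f, Vsig4, C1qa, C1qc and Marco. The fitted log2 fold changes of genes at 0 in a group depend on the prior count and are not given.

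Levels were compared between genes per kilobase of exon, as CPM per kb. Csf1r ranked first of the 10 genes in 6 of the 8 libraries, including all LLRC libraries. In the non-LRC library of JV624, Cd5l stood at 4.65 CPM per kb, Csf1r at 3.66 and Adgre1 at 1.90. In that of JV6314, C1qb stood at 5.08 CPM per kb, Csf1r at 2.29 and Cd5l at 2.23. In these 2 libraries a Kupffer cell or C1q gene was therefore above Csf1r. These lengths include the exon bases that Csf1r shares with Hmgxb3. Over its other 4901 exon bases alone Csf1r stood at 4.32 CPM per kb in the non-LRC library of JV624 and at 2.70 in that of JV6314. These values were still below Cd5l and C1qb, in that order. The ranks rest on 60 counts of Cd5l in JV624 and 28 of C1qb in JV6314, and were not tested. In the non-LRC library of JV621 Timd4, at 2.11 CPM per kb, came after Csf1r.

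**Figure D3:**
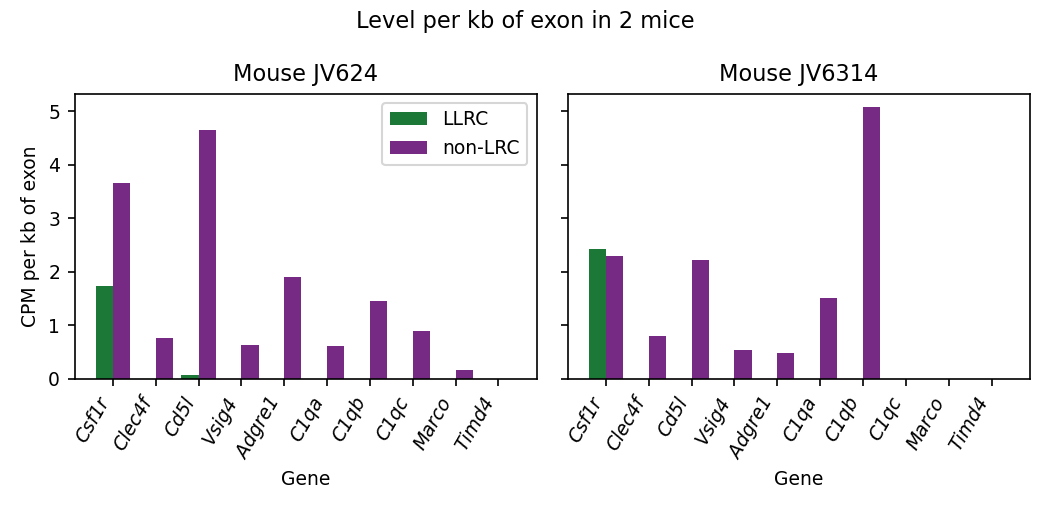
Level of each of the 10 genes in CPM per kb of exon in the LLRC (green) and non-LRC (purple) libraries of JV624 and JV6314, each bar being 1 library. Cd5l (4.65 CPM per kb) led in the non-LRC library of JV624 and C1qb (5.08 CPM per kb) in that of JV6314, while in the LLRC libraries of both mice Csf1r led.

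Of the ligands of the receptor that Csf1r encodes, Csf1 was read in every library and Il34 was low. Csf1 stood in LLRCs at 9.79, 7.33, 6.18 and 6.22 CPM, and in non-LRC cells at 5.26, 10.6, 26.5 and 7.10 CPM (log2 fold change -0.74, SE 0.57, adjusted p = 0.9999 from the quasi-likelihood test of edgeR). The highest Csf1 level was again in the non-LRC library of JV624. Il34 stood in LLRCs at 1.07, 0.237, 0 and 0 CPM, and in non-LRC cells at 2.25, 0, 2.37 and 0 CPM, too low to be tested.

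Of 30 further genes of macrophages, 13 could be tested and 0 passed in either direction (0.0% of all genes tested). A log2 fold change below 0 was found for 11 of the 13 (9 of 13 with upper-quartile scaling), the median was -0.55 against -0.01 over all genes tested, and the smallest adjusted p was 0.319 in edgeR's test. At an unadjusted p below 0.05, 3 of the 13 were lower in LLRCs and 0 higher, against 3.56% and 1.6% of all genes tested. The 4 most abundant were Id3, Slc40a1, Cd14 and Fcna, of which the first 3 are also made by other liver cells. Fcna encodes ficolin A, a recognition protein of the lectin complement pathway that Kupffer cells make. LLRCs had 3.30, 3.19, 7.79 and 2.00 CPM, and non-LRC cells 9.89, 6.26, 74.7 and 86.6 CPM, so that the non-LRC libraries of JV624 and JV6314 were the highest, as for Adgre1 and Clec4f. Its log2 fold change was -3.45 (SE 0.92, adjusted p = 0.392 from the quasi-likelihood test of edgeR). Slc40a1, the iron exporter ferroportin, was at 315, 284, 229 and 256 CPM in LLRCs, against 222, 225, 152 and 124 CPM in non-LRC cells (log2 fold change 0.58, SE 0.27, adjusted p = 0.993 from the same edgeR test). Of the 13 genes it was the only one with every LLRC value above every non-LRC value, as had 2.15% of the 13605 genes tested. The opposite, found for 1.91% of the genes tested, held for 2 of the 13, Fcer1g and Mertk, which are named for it after their values were seen. Fcer1g, a signalling chain of Fc receptors, stood in LLRCs at 1.36, 0.237, 0.441 and 0.333 CPM, and in non-LRC cells at 1.88, 4.18, 8.37 and 22.1 CPM (log2 fold change -3.89, SE 0.96, adjusted p = 0.319 by edgeR). Mertk, a receptor for the uptake of dying cells, stood in LLRCs at 0, 0.828, 1.03 and 1.11 CPM, and in non-LRC cells at 8.27, 11.3, 4.26 and 1.38 CPM (log2 fold change -3.07, SE 1.05, adjusted p = 0.728 by edgeR). Fcer1g was highest in JV6314 and JV624, and Mertk in JV621 and JV602. Cd14, the co-receptor for lipopolysaccharide, and Id3, a transcriptional regulator, had log2 fold changes of -0.01 and -0.05 (adjusted p = 0.9999 for each in the edgeR test). Of the 17 macrophage genes too low to be tested, 12 had a lower pooled level in LLRCs and 4 a higher one, and Cd163, a macrophage receptor for hemoglobin, had no count in any library. The 4 were Spic, Ctss, Ccr2 and Cx3cr1, named after their values were seen. Spic, a transcription factor of iron-recycling macrophages, was read only in LLRCs of JV621, with 34 counts. Ctss, a lysosomal protease, had 34 counts in the LLRC library of JV602 and 12 in the non-LRC library of JV624. Ccr2 and Cx3cr1, chemokine receptors of monocytes, had at most 17 counts in any library. Among the 13 tested, Mpeg1, a pore-forming protein of macrophages, was the other gene above 0, with 32, 12, 0 and 35 counts in LLRCs, against 11, 0, 7 and 2 in non-LRC cells (log2 fold change 1.49, adjusted p = 0.9999 by edgeR).

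Among genes whose products bind C1q or act with it, 11 of the 12 found in the table could be tested and 0 passed, with 10 of 11 log2 fold changes below 0 and a median of -0.60. The 4 most abundant were Serping1, the C1 inhibitor, Calr, which encodes the C1q-binding chaperone calreticulin, Cr1l, a regulator that limits complement on the cell's own surface, and C1qbp, a mitochondrial and C1q-binding protein. Their log2 fold changes were -0.60, -0.06, -0.31 and 0.25, all at an adjusted p of 0.9999 (edgeR). In contrast to the C1q chains, all 4 were read in every library, Serping1 at between 105 and 345 CPM. At an unadjusted p below 0.05, 1 of the 11 was lower in LLRCs and 0 higher (3.56% and 1.6% of all genes tested). This was Cd93, a receptor of endothelial and myeloid cells that was first described as a C1q receptor, named here after its values were seen. It stood in LLRCs at 0, 0.591, 0 and 0.111 CPM, and in non-LRC cells at 2.38, 37.8, 5.52 and 66.5 CPM, the only gene of the 11 without overlap (1.91% of all genes tested, lower in LLRCs). Its log2 fold change was -7.19 (SE 1.48, adjusted p = 0.161 by edgeR). The study's own list of changed genes holds Cd93, so its direction is not independent evidence.

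The near-identical pairs C1ra and C1rb, C1s1 and C1s2, and C4a and C4b in these lists can share reads, and their counts are uncertain. Of 30 other complement genes described, 21 could be tested and 0 passed, with 19 of 21 log2 fold changes below 0 and a median of -1.11. Clu, the complement inhibitor clusterin, was the most abundant and averaged 14542 ± 914.7 CPM in LLRCs, against 11101 ± 2152 CPM in non-LRC cells (SD, n = 4 each), with no overlap (2.15% of genes tested had this, higher in LLRCs) and a log2 fold change of 0.39 (SE 0.26, adjusted p = 0.9999 in the edgeR test). C3, the central component, had a log2 fold change of -0.86 (SE 0.40, adjusted p = 0.983) and Vtn, which encodes vitronectin, one of -0.30 (SE 0.51, adjusted p = 0.9999), both in the edgeR test. Cd55, which encodes the decay-accelerating factor of the cell surface, stood in LLRCs at 0.872, 47.1, 41.0 and 104 CPM, and in non-LRC cells at 79.3, 585, 202 and 110 CPM. The groups overlapped, and its log2 fold change was -2.34 (SE 1.08, adjusted p = 0.983 in the edgeR test). At an unadjusted p below 0.05, 5 of the 21 were lower in LLRCs and 0 higher (3.56% and 1.6% of all genes tested). Cd59a, an inhibitor of the membrane attack complex named after its values were seen, was the 1 gene of the 21 with every LLRC value below every non-LRC value (1.91% of all genes tested), at 52.5 ± 12.5 CPM in LLRCs, against 84.3 ± 18.7 CPM in non-LRC cells (SD, n = 4 each).

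**Figure D4:**
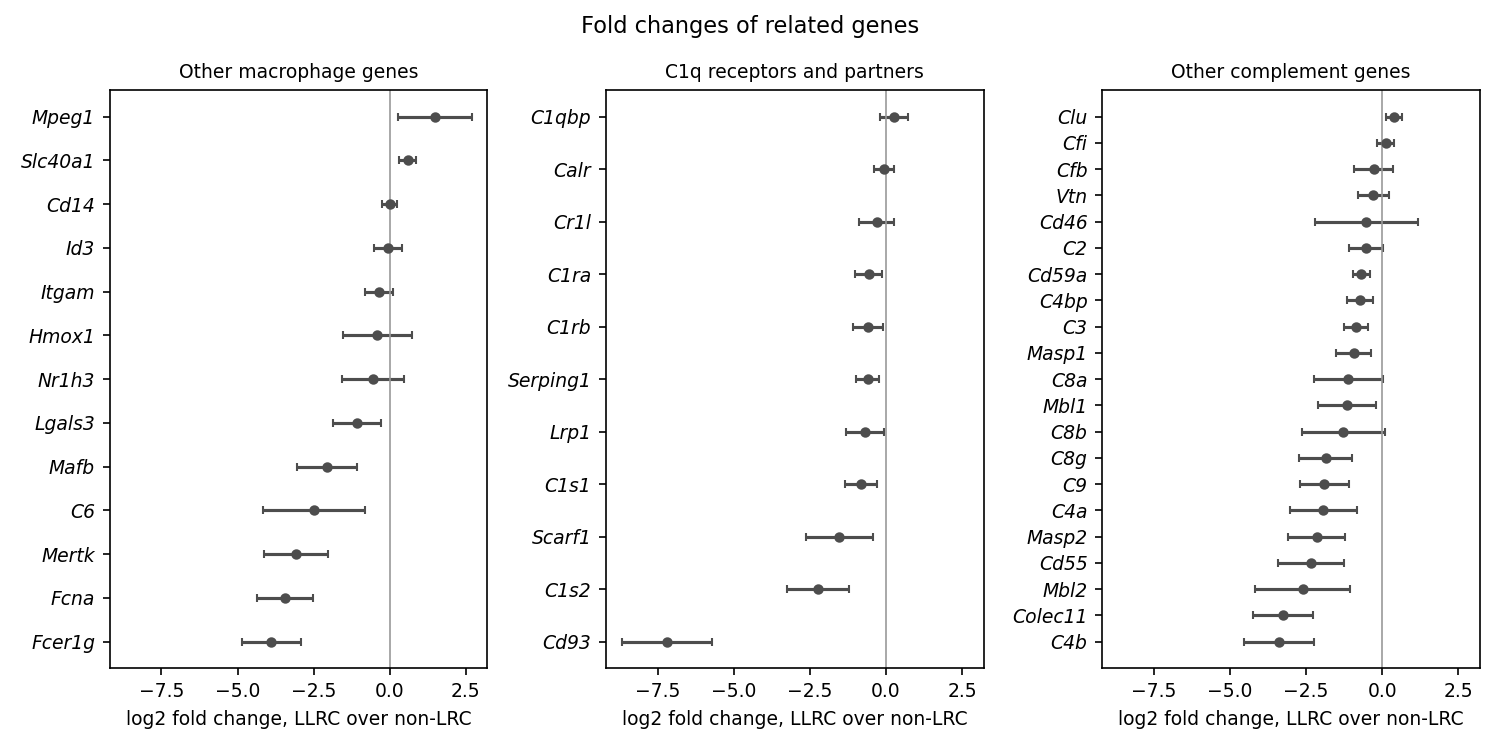
Log2 fold change, LLRC over non-LRC, of each tested gene of 3 lists of related genes, drawn as a point with a bar for the SE on each side and a line at 0. Most macrophage, C1q partner and complement genes lay below 0, and none of them passed the test.

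The markers of other cells moved with these genes as follows. Of 12 markers of sinusoidal endothelial cells, 10 could be tested, and all 10 had every LLRC value below every non-LRC value (1.91% of all genes tested did), with a median log2 fold change of -3.25 and a smallest adjusted p of 0.0809 in the quasi-likelihood test of edgeR. Several of them, Mrc1, Oit3, Dnase1l3 and Kdr among them, are in the study's own list of changed genes and are not independent evidence of that direction. Their sum was 78.0 to 169.5 CPM in LLRCs, and 395.0, 1418, 587.8 and 2263 CPM in non-LRC cells. The highest sums were in JV6314 and JV621, so the order differed from that of the other 9 genes, which were highest in JV624 and JV6314. Mrc1, a mannose receptor that Kupffer cells also carry, was at 64.0, 279, 55.4 and 259 CPM in these non-LRC libraries and at 3.08 to 5.29 CPM in LLRCs. Hepatocyte markers summed to 2801 to 3156 CPM in LLRCs, against 2882, 2035, 6016 and 4670 CPM in non-LRC cells, highest in JV624 and JV6314. Alb, which encodes albumin, was the most abundant, at 2772.6 CPM in the non-LRC library of JV624, with a log2 fold change of 0.01. The next ones, Ttr, Fgb and Serpina1a, which encode the plasma proteins transthyretin, fibrinogen and alpha-1-antitrypsin, had log2 fold changes of -0.20, -1.22 and -1.52. All 8 hepatocyte markers were tested and 0 passed, with 7 below 0 (8 with DESeq2 size factors or library size only), a median of -1.37. At an unadjusted p below 0.05, 4 of the 8 were lower in LLRCs and 0 higher (3.56% and 1.6% of all genes tested), and of these Apoa1, Apoc3 and Cyp2e1, named after their values were seen, had log2 fold changes of -2.66, -2.74 and -2.69. The sum of the cholangiocyte markers, which was almost all Spp1, came to 113891 to 220865 CPM in LLRCs, against 142556, 161820, 65925 and 104030 CPM in non-LRC cells, lowest in the same 2 libraries. The other cholangiocyte markers did not share that order. In non-LRC cells Krt19, the keratin of the bile duct epithelium, was highest in those 2 libraries, at 123, 94.6, 172 and 146 CPM, whereas Cftr, the chloride channel of cholangiocytes, was lowest there, at 89.4, 68.3, 21.3 and 40.8 CPM. Both were named after their values were seen. Spp1, Tspan8, Epcam and Sox9, the most abundant of these, had log2 fold changes of 0.53, -0.49, 0.08 and 0.40, and 0 of the 10 markers passed, with 8 above 0 and 2 below, a median of 0.30, and Cftr the 1 gene at an unadjusted p below 0.05 (log2 fold change 1.43, adjusted p = 0.688 by edgeR; 1.6% of all genes tested were higher in LLRCs at that p).

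Of 20 markers of other leukocytes, 7 were at 0 in every library and only Ptprc could be tested. Their sum was 0.872 to 96.7 CPM in LLRCs and at most 588.9 CPM in non-LRC cells. The library at 588.9 CPM was that of JV621, where S100a8, a calcium-binding protein of neutrophils, had 2732 counts. The LLRC library of JV621 had 726 counts of S100a8 and the highest LLRC sum, 96.7 CPM. S100a9, the partner of S100a8, and Cd209a, a lectin of dendritic cells, were also highest in the non-LRC library of JV621, at 7.73 CPM each. Ptprc, which encodes the CD45 of the sort, had 5, 34, 14 and 59 counts in LLRCs, against 0, 0, 0 and 7 in non-LRC cells, the opposite direction to the Kupffer cell genes (log2 fold change 3.27, SE 1.42, adjusted p = 0.957 in the edgeR test). In the non-LRC library of JV624, with the most Adgre1 and Cd5l, Ptprc was at 0 counts. Epcam, the positive marker of the sort, averaged 583.5 ± 48.6 CPM in LLRCs, against 551.0 ± 148.3 CPM in non-LRC cells (SD, n = 4 each). The part of these cell types in the levels of the 10 genes was not tested.

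**Figure D5:**
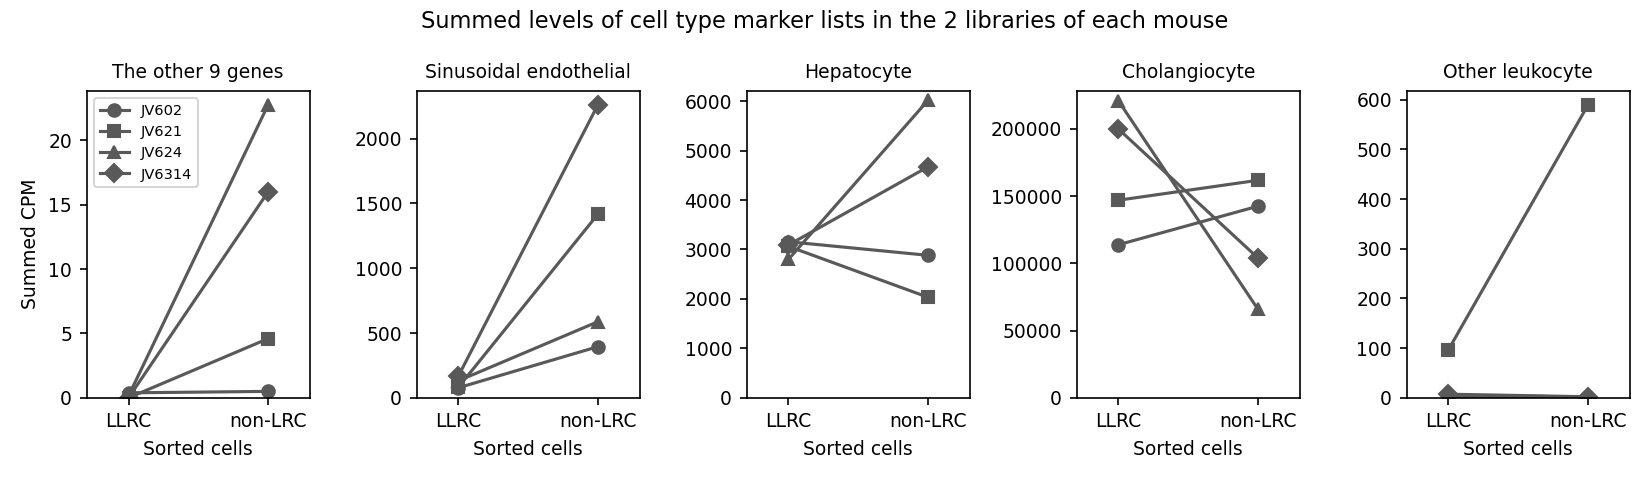
Summed CPM of the other 9 genes and of lists of markers of sinusoidal endothelial cells, hepatocytes, cholangiocytes and other leukocytes in both libraries of each mouse, joined by a line per mouse, each panel on its own axis. In non-LRC cells of JV624 and JV6314 the sums of the 9 genes and of the hepatocyte markers were highest and the cholangiocyte sum, almost all Spp1, was lowest, while the other leukocyte markers peaked in JV621 at 588.9 CPM.

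The genes whose level followed Csf1r most closely over the 8 libraries, as log2 CPM, were Zfp91 (Pearson r = 0.948), Per1 (r = 0.946) and Txndc5 (r = 0.939), which encode a zinc finger protein, a circadian clock component and a protein of the endoplasmic reticulum. None of these is a macrophage marker. For the summed C1q chains the closest were Sord (r = 0.984), Zbtb7a (r = 0.9585) and Asl (r = 0.958). Sord and Asl encode enzymes of sorbitol metabolism and of the urea cycle that are abundant in hepatocytes. Sord had 118, 85, 49 and 103 counts in LLRCs, against 157, 47, 647 and 532 in non-LRC cells, again highest in JV624 and JV6314. These values describe 8 libraries that share 4 mice, were picked as the highest of all genes that passed the filter, and for the C1q chains rest on 3 non-LRC libraries with reads.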

How the data were processed

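The authors sequenced RNA from 4 LLRC and 4 non-LRC libraries, had the reads mapped by a service (the aligner is not given in the sources used here) and used HTSeq 0.5.3p9 (union mode, strand ignored) to count them on exons, with the Ensembl annotation of GRCm38.p4. They deposited raw gene counts. Their edgeR comparison, which holds fold changes and p-values, was not used. The labels name the mouse of each library.

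From the counts, 13605 of 46603 genes passed filterByExpr and were tested with edgeR 4.0.16 in R 4.3.3 (TMM scaling, with factors from 0.816 to 1.23, and the quasi-likelihood test with the group as the only term), with Benjamini-Hochberg adjustment over all 13605 and a threshold of 0.05. DESeq2 1.42.0 and limma 3.58.1 served as alternatives. The tests were tested on simulated counts for 13605 genes, 200 of them changed by 3 on the log2 scale between LLRC and non-LRC. The quasi-likelihood test recovered 192 with 14 false calls at a dispersion of 0.1, and 84 with 4 false calls at the dispersions estimated from these libraries (common dispersion 0.476), where edgeR's exact test recovered 133 with 23 false calls and DESeq2 142 with 53. Exact permutation tests over the 8 libraries used 70 assignments. Within-mouse ratios used counts plus 0.5, scaled. Exon lengths, shared exons and coordinates came from GENCODE M21 (GRCm38), which named 46091 identifiers, and exons of the authors' annotation release may differ from it. Samples from the same mouse are paired: the deviations of the libraries of JV602, JV621, JV624 and JV6314 from their group means correlated at 0.096, 0.074, 0.003 and 0.171.

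The genes named are the 10 genes, in each related list the 4 with the highest mean CPM (none passed the threshold), and the 3 closest in pattern to Csf1r and to the summed C1q chains. Genes said to be named after their values were seen, Cd163, Mpeg1, Hmgxb3 and the patterns counted over all genes fall outside this rule and were chosen with the values known. The members and lists were chosen with earlier results of these data known. A further gene is not reported here and was left out of the complement list. C1r and C5 had no row matched by symbol and are not analysed here.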

Additional observations from a re-analysis of the deposited data

Results flagged for a closer look

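A library was far from the other 3 of its group, by Dixon's test at the 95% level, in 6 of the 14 groups of 4 libraries with any spread among the 10 genes. Chance gives about 1 in 20 for values with a continuous spread, and 1 non-zero value among zeros always meets the rule. In LLRCs these were Cd5l in JV624 (0.147 CPM, 1 count), Vsig4 in JV602 (0.291 CPM, 3 counts) and Timd4 in JV602 (0.0969 CPM, 1 count). In non-LRC cells these were C1qc in JV624 (1.74 CPM, 11 counts), Marco in JV624 (0.316 CPM, 2 counts) and Timd4 in JV621 (4.59 CPM, 22 counts). Only C1qc and Timd4 in non-LRC cells were above 3 counts. Each of these 2 values is the whole of its gene's reads in that group.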

How the results depend on the processing

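Csf1r was tested in all 17 alternatives and did not pass the threshold in any. In 13 of the 17 it was the only one of the 10 genes tested, 5 were tested with a filter of 1 CPM in 2 libraries, and all 10 entered without a filter, in the exact test and in DESeq2, which gave an adjusted p for 5. None of those tested passed. Over all genes, 0 were called by edgeR's quasi-likelihood test (702 at an unadjusted p below 0.05), 11 without a filter on low counts, 268 by DESeq2 and 115 by edgeR's exact test without a filter. With single libraries left out the count ran from 0 to 6, the 6 being without the non-LRC library of JV602. The lowest adjusted p-values of the 9 genes other than Csf1r in these alternatives were 0.118 for C1qb and 0.172 for Cd5l, both from DESeq2. The log2 fold change of Csf1r ran from -0.53 to 0.040 with single libraries left out, and was above 0 without the LLRC library of JV624 (0.040) and when that of the JV602 non-LRC cells was left out (0.035). Its adjusted p was 0.930 or higher in all 17. With the mouse as a replicate block, Csf1r was at -0.21 and 0 genes were called (569 at an unadjusted p below 0.05), so the paired fit changed no call. The causes were not tested. Among the alternative scalings, library size only gave the largest shift of the median over all genes tested, to -0.09.

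Depth limits the 9 other genes: 3 counts are 0.291 to 0.626 CPM in 1 library, and the levels of C1qa, Marco and Vsig4 lie near that. The filter removed all 9. The non-LRC library with the highest total, that of JV602, held 4 counts of these genes. Nothing in the labels separates sorting or library batches from the mice.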
